A study of Mus musculus with 8 samples.

Results

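The genes described here are 45 genes of skeletal muscle fibres, chosen by name as components of the contractile apparatus, of its electrical activation and of its energy supply. They fall into 6 groups by role: 10 isoforms of fast fibres, 7 isoforms of slow fibres, 3 developmental isoforms, 10 genes of the sarcomere scaffold and thin filament, 9 genes of excitation and calcium handling, and 6 energy enzymes with myoglobin. All 45 had at least 1 probe on the array, among 27659 genes or unnamed probes in all, and 44 were tested among 19046 genes. The array files name 44 of the 45 directly. The probe of Mybpc1 carries a clone name there (8030451F13Rik) and was matched by its accession. The RNA was taken from back skin of hairless male mice (strain SKH-1) aged 19 weeks. All mice had UVB irradiation of the back for 10 weeks. From 1 week after its end, the vehicle group (4 arrays) had 30 vol % ethanol spread on the back, and the enalapril group (4 arrays) had 1% w/v enalapril maleate in the same ethanol, 5 times a week for 2 weeks. Every array is thus UVB-exposed skin treated with ethanol, and no unirradiated or untreated skin was analysed here. Enalapril inhibits angiotensin-converting enzyme. The design text also speaks of 6 mice per group and of treatment for 2 or 6 weeks, where the sample labels give 2 weeks and 4 RNA samples per condition; the labels were followed here. They call the 4 samples of a group biological replicates and do not say how deep the skin was taken.

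A muscle fibre shortens when myosin heads of the thick filament pull on actin of the thin filament inside the sarcomere, the repeating unit bounded by Z-discs. Troponin and tropomyosin on the thin filament hold contraction off until calcium is released from the sarcoplasmic reticulum, in answer to a voltage sensor in the muscle membrane. Fast and slow fibres use different genes for many of these proteins, and mouse skin lies on a thin sheet of skeletal muscle, the panniculus carnosus.

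The level of a gene is given as log2 of its probe's processed intensity relative to the 75th percentile of the same array, so 0 is that percentile and a difference of 1 is a doubling. Levels of different genes come from different probes and are not set against each other. On each array, 67.1% to 72.7% of the spots exceeded background clearly and none was saturated. The vehicle arrays shared slide 1 and scan 1, the enalapril arrays slide 2 and scan 2, so the effect of treatment cannot be told apart from that of slide or scan. Of the 45 muscle genes, 42 were well above background on all 8 arrays, among them each of 8 defining genes of muscle fibres (Acta1, Ckm, Ttn, Neb, Tnnt3, Mylpf, Atp2a1 and Ryr1).

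Muscle fibre genes were lower in the enalapril group. Of the 44 tested, 17 fell (limma, Benjamini-Hochberg adjusted p under 0.05), none rose and 27 did not pass. None rose at an unadjusted p under 0.05 either, where 29 were lower. Over all 19046 genes tested, 14.2% changed, 9.88% falling and 4.33% rising. The log2 change was below 0 for 41 of the 44, with a median of −0.67 against −0.08 for all genes tested. These counts rest on 1 probe per gene. Of 17 genes with several tested probes, 10 had every probe change in the same direction. The other 7 had probes in both directions (Atp2a1, Myh4, Myl3, Myom1, Neb, Ryr1 and Ttn). All 4 enalapril arrays lay below all 4 vehicle arrays for 22 of the 44, compared with 15.5% of all genes, and above them for none of the 44, compared with 6.61%. In whole skin, fewer muscle fibres and less of these transcripts per fibre cannot be told apart. At the adjusted threshold, 5 of 10 fast isoforms tested fell, 4 of 6 slow isoforms and 4 of 6 energy genes. So did 2 of 10 scaffold genes, 2 of 9 calcium handling genes and none of the 3 developmental isoforms. This order of the groups depends on the threshold. At an unadjusted p under 0.05, 8 scaffold genes were lower, 7 fast isoforms, 5 slow isoforms, 5 energy genes, 4 calcium handling genes and no developmental isoform. The number of genes that passed depended on single arrays, being 6 without vehicle 1, 7 without enalapril 1, 8 without enalapril 3, 9 without enalapril 2, 11 without vehicle 4 and 18 without enalapril 4. It was 8 by quantile normalization, 7 with centring on control probes, 11 with no filter on dim probes and 28 on values not scaled between arrays, where the median of all genes stood at −0.45. With normexp background correction it was 0 (0 of all 19046 genes by limma, 24 of the 44 lower at an unadjusted p under 0.05), and it was also 0 after the planned repair of distorted background values on enalapril 3. A wider repair of 6 such values, chosen after seeing the data, gave 17, of which 14 were among the original 17.

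**Figure D1:**
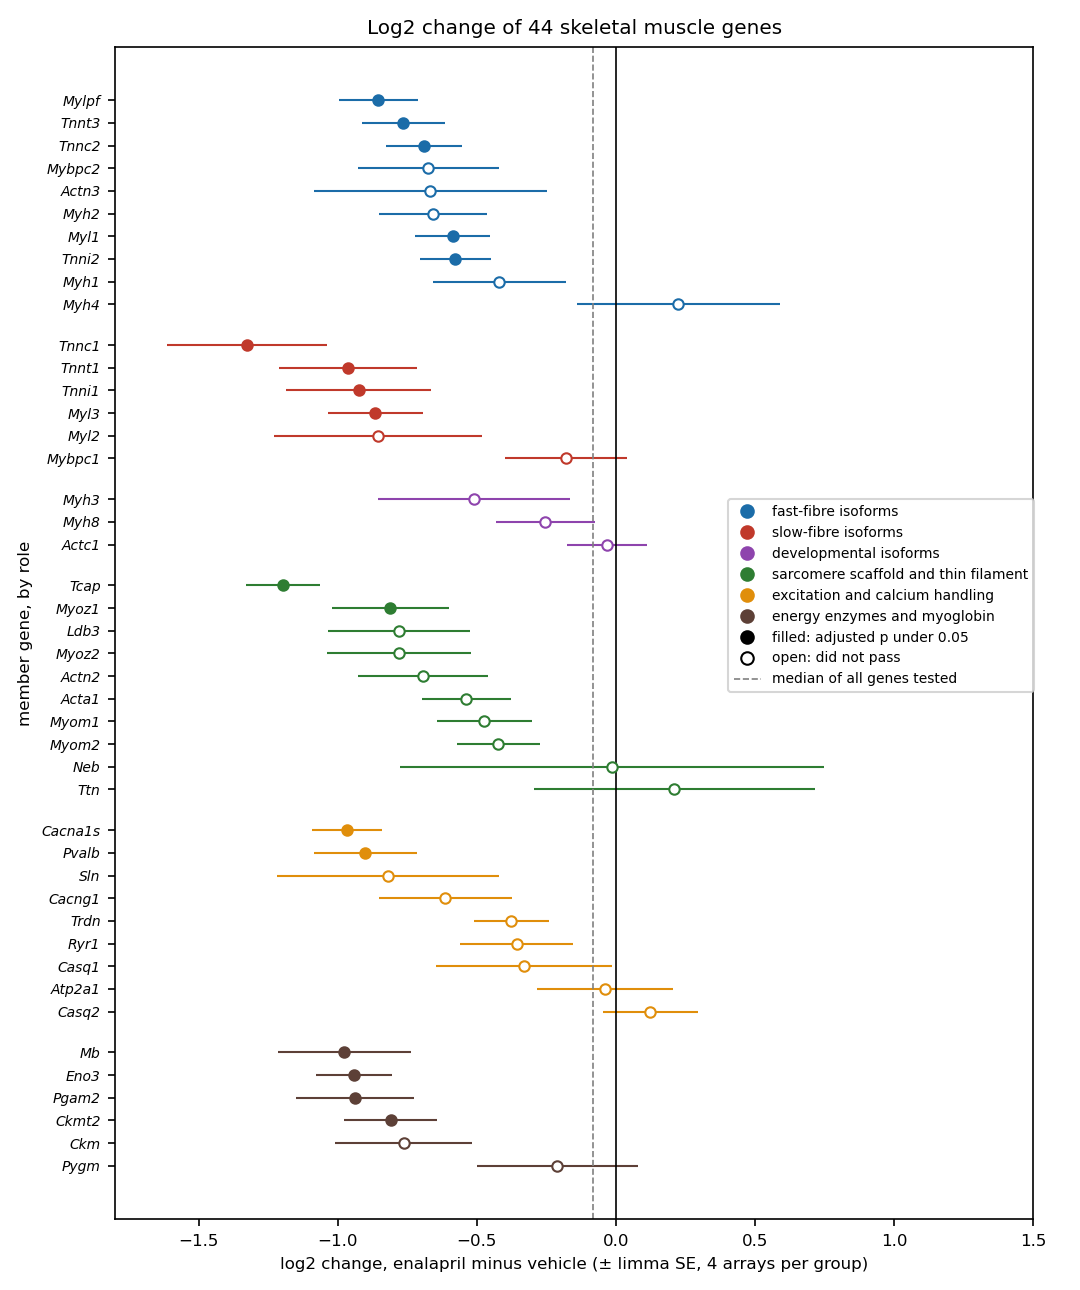
The log2 change of each of the 44 tested genes (enalapril minus vehicle, horizontal axis) is plotted with its limma standard error over 4 arrays per group, with 1 row per gene grouped and coloured by role. Filled points passed at an adjusted p under 0.05; 41 of 44 points lie left of 0, and the dashed line is the median of all genes tested, −0.08.

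The arrays of a group differed among themselves. Averaged over the 44 genes, each centred on its mean over the 8 arrays, vehicle 1 to 4 stood at 0.39, 0.01, 0.61 and 0.18 log2, and enalapril 1 to 4 at −0.46, −0.18, −0.18 and −0.36. Vehicle 3 held the highest level of 27 of the 44 genes and enalapril 1 the lowest of 27. Vehicle 2 was the vehicle array nearest to the enalapril arrays.

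**Figure D2:**
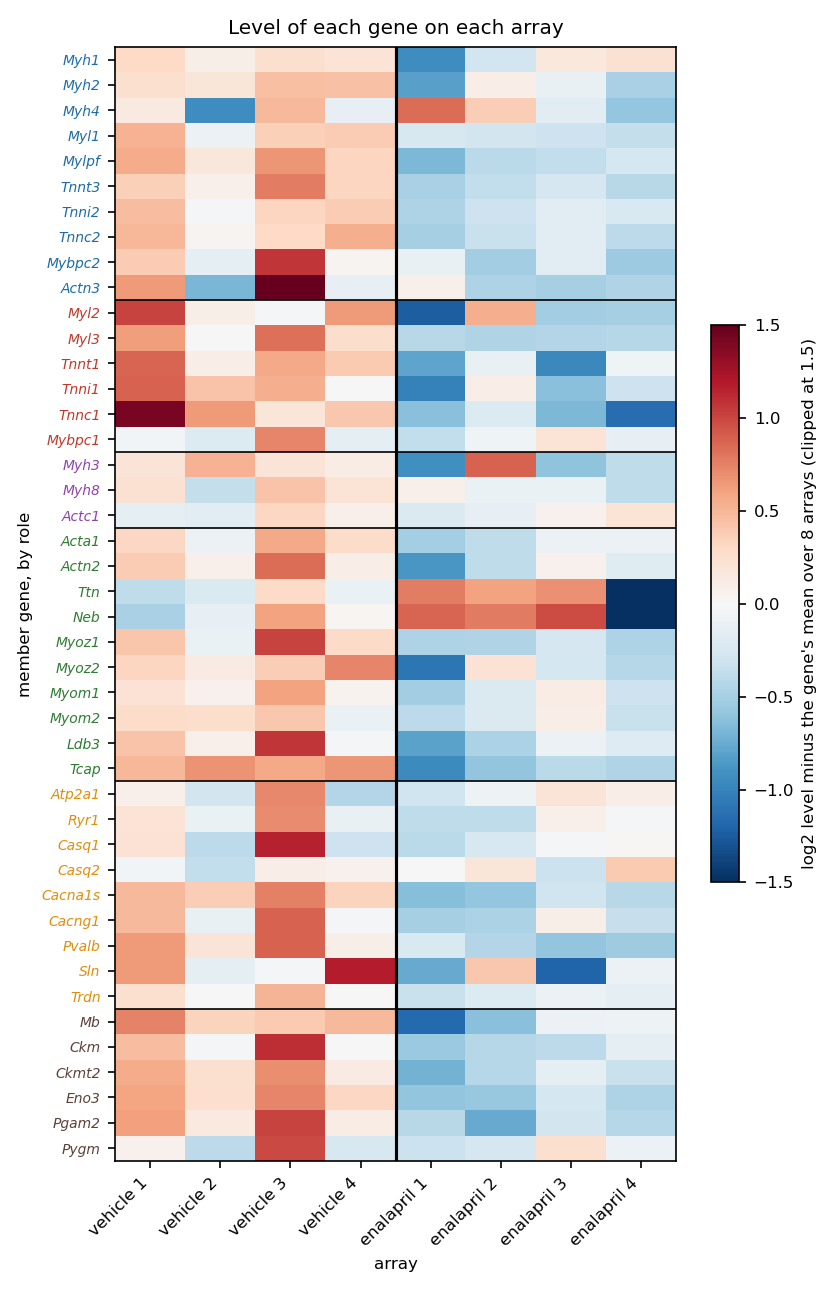
Each cell is the log2 level of 1 gene on 1 array minus that gene's mean over the 8 arrays, with genes in rows ordered and coloured by role (fast, slow, developmental, scaffold, calcium handling, energy from the top) and arrays in columns. Colours are clipped at 1.5; Ttn and Neb differ from the genes around them in being high on enalapril 1 to 3 and low on enalapril 4.

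Among fast-fibre isoforms, the light chains and the whole troponin complex fell. Mylpf, the regulatory light chain of fast myosin, stood at 5.73, 5.34, 5.83 and 5.49 on vehicle 1 to 4 and at 4.50, 4.77, 4.81 and 4.91 on enalapril 1 to 4. The groups did not overlap, and Mylpf fell by 0.85 ± 0.14 log2, or 1.81-fold (limma adjusted p = 0.0128). Its promoter is shown as that of the fast isoform with the smallest p that has an entry in RefSeq's promoter table (GRCm38.p6, chr7:127211358-127211657, plus strand), which runs from 250 bases before a transcript start to 50 bases into the transcript. The Mylpf window begins 2510 bases inside the outermost start that RefSeq gives for the gene. Capitals mark E-boxes (CANNTG), the motif recognised by MyoD and its relatives.
Mylpf: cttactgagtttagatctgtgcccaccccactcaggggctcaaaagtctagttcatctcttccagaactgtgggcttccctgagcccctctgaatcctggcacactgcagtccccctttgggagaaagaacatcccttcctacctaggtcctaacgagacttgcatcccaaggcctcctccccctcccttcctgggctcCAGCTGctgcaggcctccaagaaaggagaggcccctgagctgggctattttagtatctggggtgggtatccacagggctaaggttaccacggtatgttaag
The window holds 1 E-box, of the form CAGCTG. Myl1, the essential light chain of fast myosin, stood at 7.00, 6.39, 6.83 and 6.85 on the vehicle arrays and at 6.24, 6.20, 6.17 and 6.12 on the enalapril arrays. It fell by 0.59 ± 0.13 log2 (limma adjusted p = 0.0273), and the 4 enalapril values lay close together below the vehicle values.

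The fast troponins moved together. Tnnt3, fast troponin T, which anchors the complex to tropomyosin, stood at 5.65, 5.37, 6.06 and 5.61 in vehicle and 4.80, 4.92, 5.04 and 4.87 in enalapril. It fell by 0.76 ± 0.15 log2 (limma adjusted p = 0.0175). Tnni2, the inhibitory subunit, stood at 7.89, 7.41, 7.75 and 7.81 in vehicle and 6.97, 7.11, 7.27 and 7.20 in enalapril, with no overlap. It fell by 0.58 ± 0.13 log2 (limma adjusted p = 0.0253). Tnnc2, the calcium-binding subunit, stood at 8.25, 7.79, 8.06 and 8.29 in vehicle and 7.25, 7.42, 7.60 and 7.36 in enalapril. It fell by 0.69 ± 0.14 log2 (limma adjusted p = 0.0186), again with every enalapril array below every vehicle array. Second probes of Tnnt3 (−0.69, adjusted p = 0.0396 over every probe) and Myl1 (−1.74, adjusted p = 0.0108) also fell. With 1 array left out in turn, Mylpf and Tnnt3 passed each time. Tnnc2 did not pass without vehicle 1 or enalapril 1 or 2 (highest adjusted p 0.0532), Tnni2 without vehicle 1 or 4 or enalapril 1, 2 or 3 (highest adjusted p 0.0688), and Myl1 without vehicle 1, 3 or 4 or enalapril 1, 2 or 3 (highest adjusted p 0.0706).

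The remaining fast isoforms did not pass. Mybpc2, fast myosin-binding protein C of the thick filament, stood at 5.27, 4.74, 5.96 and 4.93 in vehicle and 4.78, 4.37, 4.72 and 4.34 in enalapril, a change of −0.67 ± 0.25 (limma adjusted p = 0.108). Its groups overlapped through vehicle 2. Actn3, the fast-fibre α-actinin of the Z-disc, stood at 3.17, 1.85, 4.04 and 2.41 in vehicle and 2.61, 2.07, 2.04 and 2.08 in enalapril, a change of −0.67 ± 0.42 (limma adjusted p = 0.306). Vehicle 3 alone was above 4, and vehicle 2 was the lowest of all 8 arrays.

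The fast myosin heavy chain genes, the motors themselves, did not pass the threshold. Whether their change differed from that of the light chains was not tested. Myh4 encodes the heavy chain of the fastest fibres (type 2B). It stood at 6.19, 5.12, 6.54 and 5.93 in vehicle and at 6.89, 6.42, 5.88 and 5.48 in enalapril, a change of 0.22 ± 0.37 with overlapping groups (limma adjusted p = 0.709). Enalapril 1, the lowest array for most of these genes, was the highest for Myh4, and vehicle 2 was the lowest. Without vehicle 2 or without enalapril 1 the change of Myh4 turned below 0, reaching −0.05. Myh1 (type 2X) was lower on enalapril 1 and 2 than on any vehicle array, but level with vehicle on enalapril 3 and 4, at −0.42 ± 0.24 (limma adjusted p = 0.26). Myh2 (type 2A) stood at 5.39, 5.35, 5.62 and 5.60 in vehicle and 4.34, 5.26, 5.04 and 4.67 in enalapril. Its groups did not overlap, and its change of −0.66 ± 0.19 narrowly missed the threshold (limma adjusted p = 0.055). The genes Myh3, Myh2, Myh1, Myh4 and Myh8 are neighbours on chromosome 11 in the RefSeq annotation and are near-identical over much of their length, so how far a probe reads only its own gene is uncertain.

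Slow-fibre isoforms fell as well. Myl3, the essential light chain of slow myosin, stood at 5.15, 4.53, 5.35 and 4.78 on the vehicle arrays and 4.10, 4.07, 4.08 and 4.09 on the enalapril arrays. The 4 enalapril values were nearly equal and below all vehicle values, and Myl3 fell by 0.87 ± 0.17 log2, or 1.82-fold (limma adjusted p = 0.0187). A second probe of Myl3 went the other way without passing (+0.66, adjusted p = 0.0911 over every probe), and the mean of both probes gave −0.10 (adjusted p = 0.729). The promoter window of Myl3 (chr9:110763428-110763727, GRCm38.p6, plus strand) is given as that of the slow isoform with the smallest p, with E-boxes in capitals.
Myl3: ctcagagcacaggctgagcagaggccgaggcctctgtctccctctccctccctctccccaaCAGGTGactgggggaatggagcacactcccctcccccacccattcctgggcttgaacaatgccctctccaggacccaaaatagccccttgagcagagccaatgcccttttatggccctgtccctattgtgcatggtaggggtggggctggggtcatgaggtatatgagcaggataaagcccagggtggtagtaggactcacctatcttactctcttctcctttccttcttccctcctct
This window holds 1 E-box and 1 CArG box, the motif recognised by serum response factor.

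The slow troponins were dim on these arrays and fell on the processed signal. Tnnc1, the calcium-binding subunit shared by slow fibres and heart, stood at −3.87, −4.66, −5.11 and −4.89 in vehicle and −5.93, −5.50, −5.97 and −6.44 in enalapril. It fell by 1.33 ± 0.29 log2, or 2.51-fold (limma adjusted p = 0.0237), and was not well above background on 1 enalapril array. Tnnt1, slow troponin T, stood at −1.96, −2.74, −2.27 and −2.44 in vehicle and −3.63, −2.94, −3.79 and −2.89 in enalapril. All enalapril values lay below all vehicle values, and it fell by 0.96 ± 0.25 log2 (limma adjusted p = 0.0371). Tnni1, the slow inhibitory subunit, stood at −4.13, −4.59, −4.46 and −5.02 in vehicle and −6.03, −4.92, −5.64 and −5.32 in enalapril. It fell by 0.92 ± 0.26 log2 (limma adjusted p = 0.0477), although enalapril 2 lay above vehicle 4. These 3 calls rest on how background was subtracted: with normexp correction, after 6 distorted background values on enalapril 3 were repaired, the changes were −0.19 for Tnnc1 (adjusted p = 0.54), −0.50 for Tnnt1 (0.1) and −0.14 for Tnni1 (0.62). With 1 array left out, Tnnc1 did not pass without vehicle 2 or enalapril 1 or 3 (highest adjusted p 0.0604) and Myl3 without vehicle 1 or enalapril 2 or 3 (highest adjusted p 0.0526). Tnni1 passed only without enalapril 2 or 4 (otherwise up to 0.114), and Tnnt1 only without enalapril 4 (otherwise up to 0.092).

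Of the remaining slow isoforms, Myl2, the regulatory light chain of slow fibres and heart, stood at −4.50, −5.42, −5.54 and −4.87 in vehicle and −6.74, −4.96, −6.03 and −6.01 in enalapril. Enalapril 2 lay among the vehicle arrays and the change of −0.85 ± 0.37 did not pass (limma adjusted p = 0.154). Mybpc1, slow myosin-binding protein C, stood at 1.52, 1.36, 2.30 and 1.42 in vehicle and 1.19, 1.49, 1.76 and 1.44 in enalapril, a change of −0.18 ± 0.22 (limma adjusted p = 0.608) with overlapping groups. Myh7, the slow myosin heavy chain, was not tested. It was well above background on 2 vehicle arrays and on no enalapril array. Its measured means were −5.64 and −6.62, and no fold is given because the other 2 vehicle arrays did not measure it either.

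Fast and slow partners of the same protein were compared within each array, which removes the scaling of the array. In the α-actinin pair the partner set against Actn3 is Actn2, which is in all fibres and not only in slow ones. In 9 pairs with both partners measured, no shift of the fast-minus-slow difference passed the exact permutation test over 70 splits (two-sided, 0 of 9 also at an unadjusted p under 0.05, smallest possible p = 0.0286). After adjustment over the 9 pairs, 1 pair alone could not pass even at that smallest p. For the essential light chains, Myl1 minus Myl3 was higher in enalapril by 0.28 log2 (95% interval −0.03 to 0.59, exact p = 0.0571, 0.386 adjusted over the 9 pairs). The 4 enalapril arrays lay between 0.08 and 0.18 on the centred scale, and vehicle 4 at 0.11 among them. For troponin C, Tnnc2 minus Tnnc1 was higher by 0.64 (−0.17 to 1.44, exact p = 0.143). For myosin-binding protein C the difference went the other way, Mybpc2 minus Mybpc1 with a shift of −0.49 (−0.96 to −0.03, exact p = 0.0857, 0.386 adjusted). Its interval leaves out 0 while the exact test does not pass. Only enalapril 1 was among the vehicle arrays for that pair. Troponin T (0.20, −0.52 to 0.92) and troponin I (0.35, −0.37 to 1.07) were higher for the fast partner, without passing (exact p = 0.543 and 0.257). The regulatory light chains Mylpf and Myl2 differed by 0.00 (−1.02 to 1.02), the α-actinins Actn3 and Actn2 by 0.03 (−1.07 to 1.13), the calsequestrins Casq1 and Casq2 by −0.45 (−1.31 to 0.40) and the calsarcins Myoz1 and Myoz2 by −0.03 (−0.90 to 0.83). The intervals, taken from the pooled spread of 4 arrays per group, leave room for shifts of 0.5 log2 or more in each pair. The sign of the troponin C, T and I pairs turned with normexp correction after 6 spots were repaired, at −0.41, −0.21 and −0.47, and Mylpf minus Myl2 became −0.83. With the mean of all probes of a gene, Myl1 minus Myl3 turned to −1.06.

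**Figure D3:**
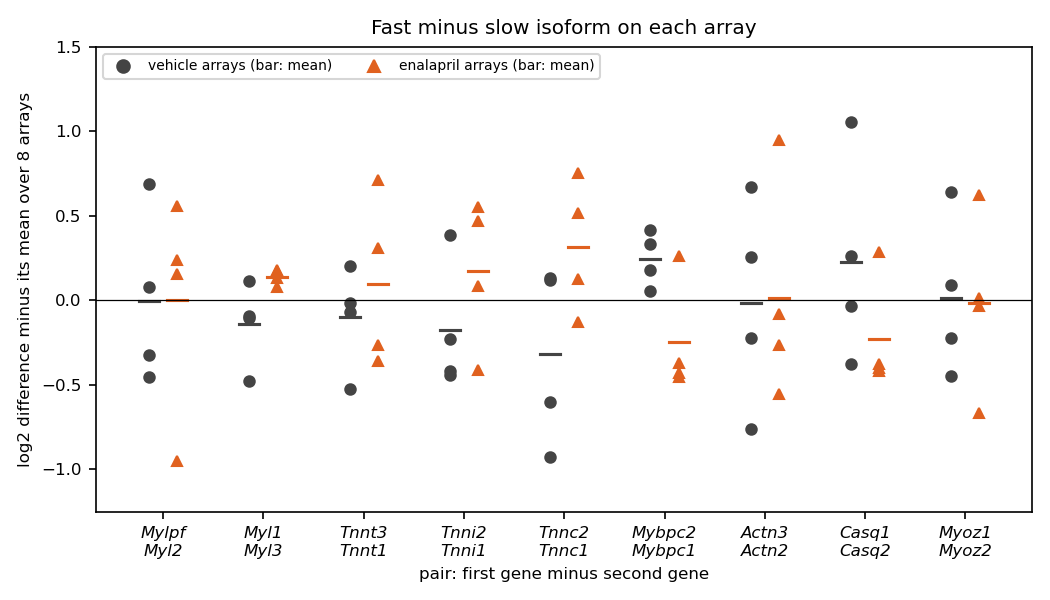
The level of the fast isoform minus that of the slow isoform (for Actn3, that of Actn2 of all fibres) is plotted for each array. The scale is log2, centred on the mean over the 8 arrays, with 9 pairs along the horizontal axis. Circles are vehicle arrays, triangles enalapril arrays and bars group means; in each pair the 4 values of a group overlap those of the other.

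The developmental isoforms had the median change nearest to 0 of the 6 groups. Myh8, the perinatal heavy chain, changed by −0.25 ± 0.18 (limma adjusted p = 0.361) and Myh3, the embryonic heavy chain, by −0.51 ± 0.35 (limma adjusted p = 0.34). Actc1, the actin of heart and developing muscle, changed by −0.03 ± 0.14 (limma adjusted p = 0.902). Their median was −0.25 and none passed at an unadjusted p under 0.05. That median is the value of Myh8, which has 4 probes, of which only the one used was tested. The other Myh8 probes were well above background on no enalapril array and on 0 to 2 vehicle arrays. How far the bright probe reads Myh8 itself is therefore uncertain.

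In the sarcomere scaffold, Tcap and Myoz1 of the Z-disc fell. Tcap, or telethonin, ties titin to the Z-disc. It stood at 6.04, 6.21, 6.10 and 6.20 on the vehicle arrays and at 4.59, 4.95, 5.14 and 5.09 on the enalapril arrays. The vehicle values lay within 0.2 log2 of each other, no enalapril array came near them, and Tcap fell by 1.20 ± 0.13 log2, or 2.29-fold (limma adjusted p = 0.00553), the smallest p among the 44 genes. It passed with each array left out. Myoz1, a calsarcin that links α-actinin and calcineurin at the Z-disc, stood at 3.43, 2.93, 4.03 and 3.31 in vehicle and 2.56, 2.57, 2.77 and 2.56 in enalapril. It fell by 0.81 ± 0.21 log2 (limma adjusted p = 0.0378), with −0.83 on a second probe (adjusted p = 0.0573 over every probe), and did not pass without vehicle 1 or 4 or enalapril 1, 2 or 3 (highest adjusted p 0.0898).

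Further scaffold genes lay lower without passing. Acta1, skeletal α-actin of the thin filament, stood at 7.10, 6.70, 7.35 and 7.06 in vehicle and 6.27, 6.40, 6.69 and 6.69 in enalapril. Enalapril 3 and 4 came within 0.01 of vehicle 2, and the change of −0.54 ± 0.16 missed the threshold (limma adjusted p = 0.0578). Actn2, the α-actinin of all fibres, stood at 2.32, 2.02, 2.78 and 2.04 in vehicle and 1.07, 1.56, 2.00 and 1.76 in enalapril (−0.69 ± 0.23, limma adjusted p = 0.0813). Myoz2, the calsarcin of slow fibres and heart, stood at −0.43, −0.63, −0.38 and −0.02 in vehicle and −1.84, −0.54, −1.02 and −1.18 in enalapril (−0.78 ± 0.26, limma adjusted p = 0.0772). Enalapril 2 alone lay among the vehicle values of Myoz2. Ldb3, a PDZ-LIM protein of the Z-disc, changed by −0.78 ± 0.26 with groups that did not overlap (limma adjusted p = 0.0745). The M-band genes Myom1 (−0.47 ± 0.17) and Myom2 (−0.42 ± 0.15) did not pass either (limma adjusted p = 0.0965 and 0.0918). The other, dim probes of Myom1 went the other way without passing (+0.17 and +0.41, limma adjusted p = 0.798 and 0.254 over every probe).

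Ttn and Neb encode the giant proteins titin and nebulin, which span the thick and thin filaments. On the probes used, Ttn and Neb departed from the other scaffold genes on the enalapril arrays. Ttn stood at 1.68, 1.84, 2.36 and 1.96 on vehicle 1 to 4 and at 2.84, 2.66, 2.75 and 0.43 on enalapril 1 to 4. Neb stood at 1.59, 1.96, 2.68 and 2.11 on the vehicle arrays and at 2.95, 2.86, 3.06 and −0.57 on the enalapril arrays. For both genes, enalapril 1, 2 and 3 were above every vehicle array and enalapril 4 was far below all of them. With all arrays, neither passed (Ttn 0.21 ± 0.50, limma adjusted p = 0.806; Neb −0.01 ± 0.76, 0.993). Without enalapril 4, Ttn was higher in enalapril by 0.79 ± 0.16 log2 (limma adjusted p = 0.0126) and Neb by 0.87 ± 0.23 (0.0306), while 18 of the other genes were lower. In that fit 17.1% of all genes fell and 9.13% rose. It is singled out here because these same values set enalapril 4 apart, so its p-values are no independent support for a rise. The probes of each gene did not all follow. With every probe tested separately and enalapril 4 left out, 5 of 9 Ttn probes were higher, 1 was lower (−0.47 ± 0.11, limma adjusted p = 0.0241) and 3 did not pass, while 1 of 4 Neb probes was higher and the other 3 did not pass, at 0.68, 0.47 and −0.09.

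The same arrays stood apart on other probes of these genes. Enalapril 4 was the lowest of the 8 arrays on 4 of 4 Neb probes and on 6 of 9 Ttn probes. Enalapril 1 to 3 lay above all vehicle arrays on 5 of 9 Ttn probes and on 1 of 4 Neb probes. The difference between the mean of enalapril 1 to 3 and enalapril 4 was 2.32 log2 on the Ttn probe used and 3.53 on the Neb probe used. On 1 Ttn probe enalapril 4 was instead higher than the mean of enalapril 1 to 3, by 0.25 log2. A low enalapril 4 was not limited to Ttn and Neb. A second Ldb3 probe stood at −1.35, −1.51, −1.61 and −3.55 on enalapril 1 to 4. A dim Myom1 probe stood at −4.12, −4.02, −3.97 and −5.66. Ppargc1a, a further muscle energy gene, stood at −1.54, −1.55, −0.79 and −3.90. On the other probes of Ldb3 and Myom1, enalapril 4 was not the lowest enalapril array. Where on the transcript each probe lies was not analysed here, and neither RNA length nor RNA quality per sample is in the labels beyond a shared minimum ratio of ribosomal bands, so their part in the pattern was not tested.

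**Figure D4:**
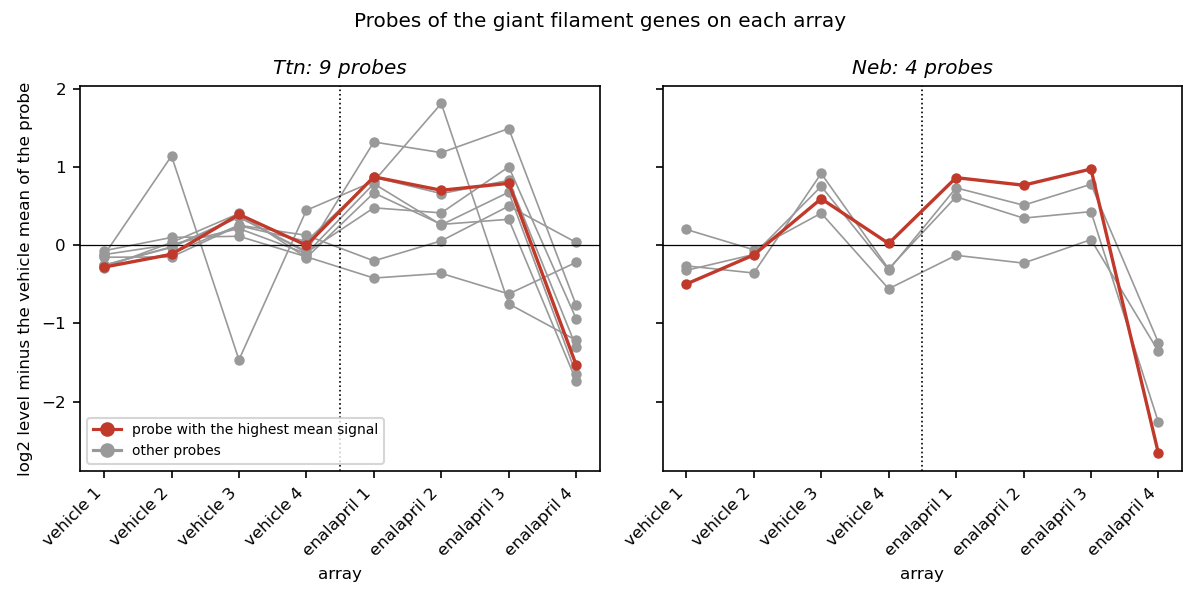
The log2 level minus the probe's vehicle mean is plotted for each array (horizontal axis), with 1 line per probe, for 9 Ttn probes on the left and 4 Neb probes on the right. The coloured line is the probe used for the gene; enalapril 4 is the lowest array on 6 of the Ttn probes and on all 4 Neb probes.

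Among genes of excitation and calcium handling, Cacna1s and Pvalb fell. Cacna1s is the voltage-sensing pore subunit of the muscle calcium channel, which triggers release from the reticulum. It stood at 3.54, 3.43, 3.82 and 3.39 in vehicle and at 2.43, 2.49, 2.76 and 2.64 in enalapril. The lowest vehicle array lay well above the highest enalapril array, and Cacna1s fell by 0.97 ± 0.13 log2, or 1.95-fold (limma adjusted p = 0.00796). It passed with each array left out. A second probe gave −0.17 (adjusted p = 0.75 over every probe), and the mean of both probes did not pass (−0.57, adjusted p = 0.109). The promoter window of Cacna1s (chr1:136052561-136052860, GRCm38.p6, plus strand) is shown as that of the gene of this group with the smallest p, with E-boxes in capitals.
Cacna1s: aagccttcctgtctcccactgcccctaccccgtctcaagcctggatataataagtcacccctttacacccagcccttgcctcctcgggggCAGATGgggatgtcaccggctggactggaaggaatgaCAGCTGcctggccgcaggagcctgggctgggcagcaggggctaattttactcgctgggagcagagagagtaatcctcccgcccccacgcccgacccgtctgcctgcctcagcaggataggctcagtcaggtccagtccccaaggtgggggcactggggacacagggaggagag
It holds 2 E-boxes, 1 of them of the form CAGCTG. Pvalb, the calcium buffer parvalbumin of fast fibres, stood at 2.79, 2.35, 3.03 and 2.24 in vehicle and 1.92, 1.71, 1.56 and 1.61 in enalapril. It fell by 0.90 ± 0.18 log2, or 1.87-fold (limma adjusted p = 0.0206), and did not pass without vehicle 1 or enalapril 2 or 3 (highest adjusted p 0.0578).

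The other 7 genes of this group, among them the release and uptake machinery of the reticulum, did not pass. Ryr1, the release channel, changed by −0.36 ± 0.20 (limma adjusted p = 0.262), and Atp2a1, the calcium pump of fast fibres, by −0.04 ± 0.24 (limma adjusted p = 0.929). Casq1, the calcium store of fast fibres, stood at 1.10, 0.49, 2.04 and 0.57 in vehicle and 0.48, 0.65, 0.85 and 0.90 in enalapril (−0.33 ± 0.32, limma adjusted p = 0.505). Vehicle 3 alone was above the enalapril range by more than 1 log2 for Casq1. Casq2, the store protein of slow fibres and heart, stood at −1.81, −2.13, −1.66 and −1.70 in vehicle and −1.76, −1.58, −2.08 and −1.37 in enalapril (0.12 ± 0.17, limma adjusted p = 0.655). Trdn, triadin, which anchors calsequestrin to the release channel, had groups that did not overlap but did not pass (−0.38 ± 0.13, limma adjusted p = 0.0952). Cacng1, a further calcium channel subunit (−0.61 ± 0.24), and Sln, sarcolipin, an inhibitor of the pump (−0.82 ± 0.40), did not pass either (limma adjusted p = 0.117 and 0.194). Sln varied widely within both groups, from −1.35 to −0.02 in vehicle and from −2.41 to −0.80 in enalapril.

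Energy genes of muscle fell in 4 of 6 cases. Eno3, the enolase of muscle glycolysis, stood at 6.52, 6.18, 6.66 and 6.24 on the vehicle arrays and 5.34, 5.37, 5.67 and 5.47 on the enalapril arrays. It fell by 0.94 ± 0.14 log2, or 1.92-fold (limma adjusted p = 0.00997), with no overlap, and passed with each array left out. Its promoter window (chr11:70656926-70657225, GRCm38.p6, plus strand) is given as that of the energy gene with the smallest p, with E-boxes in capitals.
Eno3: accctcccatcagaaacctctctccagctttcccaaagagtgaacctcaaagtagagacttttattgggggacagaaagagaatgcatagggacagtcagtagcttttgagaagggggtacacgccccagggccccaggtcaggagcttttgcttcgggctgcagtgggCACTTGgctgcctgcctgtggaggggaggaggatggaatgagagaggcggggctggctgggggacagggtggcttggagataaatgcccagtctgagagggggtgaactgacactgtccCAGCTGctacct
Of its 2 E-boxes, 1 is of the form CAGCTG and lies in the last 50 bases. The Eno3 window begins 3801 bases inside the gene's outermost annotated start. Pgam2, the muscle phosphoglycerate mutase that precedes enolase, stood at 4.58, 4.11, 4.99 and 4.08 in vehicle and 3.55, 3.22, 3.69 and 3.54 in enalapril. It fell by 0.94 ± 0.21 log2 (limma adjusted p = 0.026). Ckmt2, the mitochondrial creatine kinase of striated muscle, stood at 3.62, 3.30, 3.76 and 3.19 in vehicle and 2.35, 2.64, 2.92 and 2.73 in enalapril. Here too the groups did not overlap, and Ckmt2 fell by 0.81 ± 0.17 log2 (limma adjusted p = 0.0208). Mb, the oxygen store myoglobin, stood at 5.73, 5.33, 5.38 and 5.47 in vehicle and 3.83, 4.36, 4.90 and 4.92 in enalapril. It fell by 0.98 ± 0.24 log2, or 1.97-fold (limma adjusted p = 0.0328). The vehicle values of Mb lay close together, and enalapril 1 was the lowest array.

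The last energy genes did not pass. Ckm, the cytosolic creatine kinase, stood at 4.80, 4.30, 5.44 and 4.32 in vehicle and 3.78, 3.90, 3.94 and 4.19 in enalapril. Its groups did not overlap, but vehicle 3 stood far above the other vehicle arrays and the change was −0.76 ± 0.25 (limma adjusted p = 0.0708). Pygm, the glycogen phosphorylase of muscle, changed by −0.21 ± 0.29 (limma adjusted p = 0.652). With 1 array left out, Ckmt2 did not pass without vehicle 1 or enalapril 1 or 2 (highest adjusted p 0.0587), and Pgam2 without vehicle 1 or enalapril 1, 2 or 3 (highest adjusted p 0.0687). Mb passed only without enalapril 3 or 4 (otherwise up to 0.0838).

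RefSeq's table holds a promoter window for 35 of the 45 genes, of which the first listed was taken for each gene. E-boxes of the form CAGCTG, counted on both strands, were in 45.7% of these 35 windows and in 16.3% of all 32851 windows of the table. Any E-box (CANNTG, which includes CAGCTG) was in 85.7% against 72.3%. The MEF2 motif was in 22.9% against 3.19%, the CArG box in 17.1% against 1.63%, and TATAAA in 25.7% against 13.6%. These shares describe letters in the window only.

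Beyond the 45 genes, other muscle genes were lower on the same arrays. These lists, like the members, were put together with earlier results of these data known. In a list of 32 further sarcomere and triad genes, 17 fell and none rose, also at an unadjusted p under 0.05, with a median of −0.57. Nrap, an anchoring protein of developing myofibrils, fell by 0.80 ± 0.14 log2 (limma adjusted p = 0.0136). Jsrp1, a protein of the junction between membrane and reticulum, fell by 1.17 ± 0.16 (0.00905), Lmod3, a thin filament nucleator, by 0.93 ± 0.12 (0.00827), and Smpx by 0.72 ± 0.10 (0.00937). Of 17 further muscle energy genes 10 fell and none rose (median −0.65). Among these, the muscle isoforms of cytochrome oxidase subunits Cox8b and Cox7a1 fell by 1.08 ± 0.12 (0.00486) and 1.14 ± 0.15 (0.00827). The fatty acid carrier Fabp3 fell by 0.95 ± 0.12 (0.00796) and the mitochondrial ADP/ATP carrier Slc25a4 by 0.68 ± 0.09 (0.00853).

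Genes of the muscle membrane, of the nerve contact and of muscle regulation were counted in further lists. In 17 genes of the sarcolemma and costamere, Cav3 (caveolin 3, −0.99 ± 0.13, limma adjusted p = 0.00796) and Sgca (α-sarcoglycan, −0.98 ± 0.20, 0.0206) fell. Dag1 (dystroglycan, 0.87 ± 0.22, 0.0351) and Lama2 (laminin α2, 0.46 ± 0.12, 0.0389) rose. The groups of Dag1 overlapped, and 13 of the 17 genes did not pass. Over all genes tested, 9.88% fell and 4.33% rose, so at the adjusted threshold the 2 of 17 that fell are near the share of all genes. At an unadjusted p under 0.05, 8 of the 17 were lower by limma and 2 higher. All enalapril arrays lay below all vehicle arrays for 6 of the 17, against 15.5% of all genes. They lay above for 1, against 6.61%. Of 9 neuromuscular junction genes tested, 3 fell, namely Rapsn, which clusters acetylcholine receptors (−0.62 ± 0.15, 0.0332), Ache, acetylcholinesterase (−0.86 ± 0.22, 0.035), and Chrng, a receptor subunit (−0.88 ± 0.24, 0.0451). Chrng was dim, and only 2 enalapril arrays showed it well above background. Of 12 myogenic regulators and satellite cell genes tested, Myf6 alone fell (−0.74 ± 0.19, 0.038), which is no more than the share of all genes that fell. None of 11 genes of muscle atrophy and growth control passed by limma, where 2 were lower and 2 higher at an unadjusted p under 0.05.

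Markers of other tissues were set beside these. Among the role groups of the 45 genes, those with non-overlapping array means were lower in enalapril by 0.48 to 0.85 log2. Scaffold and developmental genes, whose array means overlapped, were lower by 0.55 and 0.27. Over all genes tested, 9.88% fell and 4.33% rose. Of 10 adipocyte markers, 4 fell (Cidec, Adipoq, Plin1 and Ucp1) and none rose, with array means from 0.07 to 0.34 in vehicle and from −0.45 to 0.09 in enalapril. Ucp1 was dim, well above background on 3 vehicle arrays and 1 enalapril array, and its groups overlapped. Of 10 smooth muscle markers, 3 fell (Lmod1, Tagln and Synpo2), with array means from −0.03 to 0.20 and from −0.13 to 0.10. Of 9 cardiac markers tested, 3 fell (Myl7, Tnnt2 and Myl4). Their array means, from 0.11 to 0.34 and from −0.44 to −0.01, did not overlap, as in the muscle groups. The heart myosin gene Myh6 was not tested because it was not well above background on enough arrays. Of 7 Schwann cell markers S100b fell. None of 8 keratinocyte, 7 fibroblast, 6 endothelial and 6 immune cell markers passed by limma, where 1 keratinocyte marker was higher and 2 endothelial markers lower at an unadjusted p under 0.05. All 8 keratinocyte and 7 fibroblast markers were well above background on all 8 arrays. The part of fat and smooth muscle in the muscle genes' difference was not tested.

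**Figure D5:**
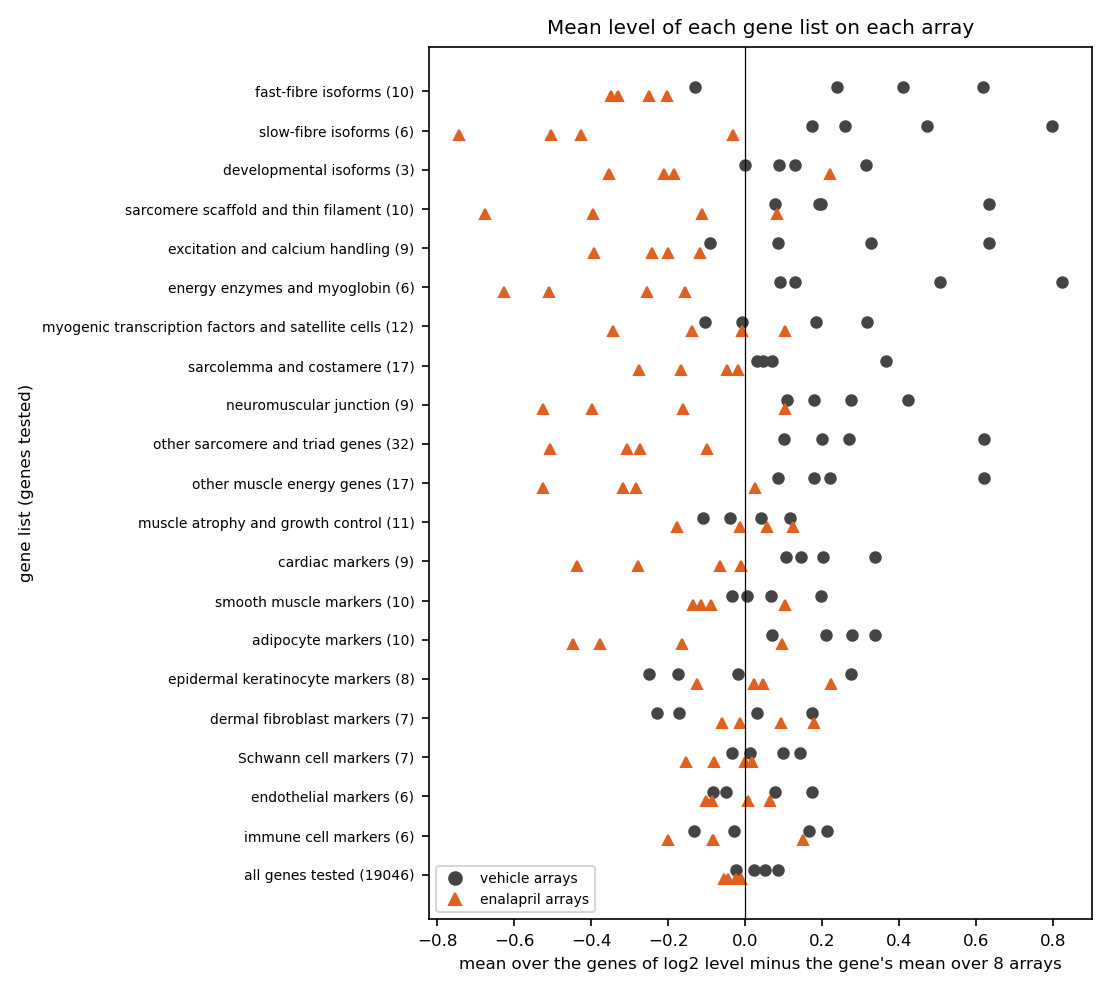
For each gene list (rows, with the number of genes tested) the mean over its genes of the log2 level minus the gene's mean over 8 arrays is plotted for each array. Circles are vehicle arrays and triangles enalapril arrays. The fast, slow, calcium handling and energy groups have every enalapril array below every vehicle array, as does the cardiac marker list. So do the lists of sarcolemma and costamere, neuromuscular junction, other sarcomere and triad, and other muscle energy genes. Keratinocyte and fibroblast markers overlap.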

How the data were processed

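Dorsal skin RNA of 8 samples was measured on 8 1-colour (Cy3) arrays, 4 per group. Per the file headers, the deposited spot intensity was background-subtracted and detrended by Agilent Feature Extraction 9.1.3.1 and not scaled between arrays (the submitters' processing notes give version 9.1). The deposited flags (well above background, outlier) are other values, used to filter spots. Log2 values in the deposited series matrix equalled the unscaled log2 intensity.

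Processed intensities were scaled to the 75th percentile of each array's non-control spots on the log2 scale. Outlier spots were left out, spots of a probe averaged, and names updated by accession through RefSeq (GRCm38.p6, names only). A gene was represented by its probe with the highest mean, and tested where 4 or more of 8 arrays showed it well above background. Tests used limma 3.58.1 (lmFit and eBayes, group only, two-sided) in R 4.3.3, with Benjamini-Hochberg adjustment over all genes, and errors are standard errors. Fast and slow pairs had an exact permutation test. The fit was tested on simulated data. The number of arrays limits the precision.

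The 45 genes, the pairs and the lists were chosen with earlier results of these data known. Every one of the 45 is accounted for, with values on every array for those that passed and for both partners of a pair; in other lists up to 4 of the genes that passed, those with the smallest p, are named. Alternatives were other background corrections, scalings, filters, probe summaries and gene names, other limma settings, a replicate block, and each array left out.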

Additional observations from a re-analysis of the deposited data

Results flagged for a closer look

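Within a group of 4 arrays, a single array stood far from the other 3 in 4 of the 88 gene and group combinations checked, where chance gives about 1 in 20. Ttn on enalapril 4 stood at 0.43, the lowest of its group, where the other 3 enalapril arrays stood at 2.66 to 2.84. Neb on enalapril 4 stood at −0.57, against 2.86 to 3.06 on the other 3. Actn3 on enalapril 1 was the highest of its group at 2.61, with the other 3 between 2.04 and 2.08. Myoz1 on enalapril 3 was the highest at 2.77, with the other 3 between 2.56 and 2.57.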

How the results depend on the processing

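The count of 17 genes lower in enalapril became 0 with normexp and 0 with normexp after the planned repair of local backgrounds on enalapril 3; limma called 0 of 19046 genes there, and 24 of the 44 genes were lower at an unadjusted p under 0.05 in either. With all 6 distorted spots repaired, a setting chosen after seeing the data, 17 passed, 14 of them the same genes. The count was 8 by quantile normalization, 7 with E1A control centring, 28 in the series matrix values, 11 without a filter and 26 at an adjusted p under 0.10. Leaving out each array in turn gave 6 to 18 lower and 0 to 2 higher. With the replicate number as a block it was 5. The arrays share only a number: the deviations of same-numbered arrays correlated at −0.16, 0.05, 0.15 and −0.02. The highest correlation between a vehicle and an enalapril array was 0.21, for vehicle 2 and enalapril 1.

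Values that turned their sign under normexp were Tnnc1 (0.53), Tnni1 (0.57), Tnnt1 (0.084), Myl2 (0.74), Myh3 (0.69) and Myh4 (−0.033), and after the planned repair Tnnc1 (0.38), Tnni1 (0.42), Myl2 (0.59) and Myh3 (0.54). The pairs turned likewise: Mylpf and Myl2 −1.75, Tnnc2 and Tnnc1 −1.32, Tnni2 and Tnni1 −1.37, Tnnt3 and Tnnt1 −0.97, and with 6 spots repaired −0.83, −0.41, −0.47 and −0.21, with Neb at 0.015. Quantile normalization gave Atp2a1 0.14, Neb 0.14 and the pair Myoz1 and Myoz2 0.15. The mean of probes gave Atp2a1 0.11, Myom1 0.036 and the pair Myl1 and Myl3 −1.06. Array weights gave Atp2a1 0.0044 and Neb 0.74, and series matrix values Casq2 −0.24, Myh4 −0.14 and Ttn −0.15. Leaving out arrays, Actc1 ran from −0.11 to 0.066, Atp2a1 from −0.19 to 0.20, Mybpc1 from −0.28 to 0.036, Myh4 from −0.048 to 0.45, Neb from −0.34 to 0.87, Pygm from −0.38 to 0.085 and Ttn from −0.011 to 0.79. The pair Actn3 and Actn2 ran from −0.29 to 0.25, Mylpf and Myl2 from −0.19 to 0.32, Myoz1 and Myoz2 from −0.25 to 0.18, and Tnnt3 and Tnnt1 from −0.0048 to 0.35. Beyond the array behaviour given for Ttn and Neb and the spots repaired, the cause was not tested. Dim slow isoforms are limited by their signal over background. Pairs were run with normexp, with 6 spots repaired, by quantile normalization, with the mean of probes, on series matrix values and with each array left out. None passed after adjustment there. As 1 pair alone could not pass with so few arrays, this says little about the pairs.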
